A study of Mus musculus with 7 samples.

Results

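The genes described here are 9 members of the tumour necrosis factor (TNF) and NF-κB circuit in mouse aorta: the ligand *Tnf*, the receptors *Tnfrsf1a*, *Tnfrsf1b* and *Tnfrsf12a*, and *Tnfaip3*, *Nfkbia*, *Nfkbiz*, *Relb* and *Birc3*, which NF-κB itself induces. They were taken by gene symbol from the 47729 Ensembl identifiers of the deposited count table, and each symbol matched 1 identifier. All 9 passed the filter on low counts, which kept 19188 genes. Aorta from mice whose labels name an *Mmp19* knockout (KO, 3 libraries) was compared with aorta of wild-type mice (WT, 4 libraries). The labels give neither age, sex, strain nor a treatment, and do not say how the allele was made, whether a library holds 1 animal or several, or whether each came from a separate mouse. P-values therefore measure the spread between these 7 libraries, which may in part be technical.

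TNF is made mainly by activated macrophages and other leukocytes, and it signals through TNFR1, which most cells carry, and TNFR2, which is more abundant on leukocytes and endothelium. Receptor binding activates the kinase IKK, which sends IκBα for degradation and frees NF-κB to enter the nucleus. NF-κB then switches on inflammatory genes and also its own brakes, among them IκBα and the ubiquitin-editing enzyme A20, so transcripts of these feedback genes are often read as a trace of recent NF-κB activity. The series asks what loss of the matrix metalloproteinase MMP19 does to the aortic wall. The comparison of KO with WT gives transcript levels of this circuit in whole tissue, and not its proteins or their activity.

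The promoters of the feedback inhibitors and of the ligand are shown because these genes are textbook NF-κB targets, and that of *Tnfrsf1b* because all its KO libraries lay above all its WT libraries. RefSeq promoter windows on GRCm38.p6, 250 bases before to 50 after a transcript start, were at hand for 7 of the 9 genes. A κB-type motif, GGNNTTTCC, and the TATA box motif, TATAAA, were searched on both strands. Both motifs were chosen after these promoters had been read, and they share no letters in the stretches below. Capitals mark the matches in the stretches, which run from 190 bases before the transcript start to 9 bases past it, 5′ to 3′ on the strand of the gene.
Nfkbia, chr12:55492639-55492837, minus strand: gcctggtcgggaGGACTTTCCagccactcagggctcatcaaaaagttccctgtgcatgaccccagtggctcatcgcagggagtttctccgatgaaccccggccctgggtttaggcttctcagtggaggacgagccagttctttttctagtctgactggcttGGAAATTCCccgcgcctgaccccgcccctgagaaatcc
Tnfaip3, chr10:19015402-19015600, minus strand: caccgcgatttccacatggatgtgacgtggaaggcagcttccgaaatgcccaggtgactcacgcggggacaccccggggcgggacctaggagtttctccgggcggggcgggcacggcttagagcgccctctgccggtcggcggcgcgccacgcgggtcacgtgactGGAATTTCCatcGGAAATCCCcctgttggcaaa
Tnf, chr17:35201999-35202197, minus strand: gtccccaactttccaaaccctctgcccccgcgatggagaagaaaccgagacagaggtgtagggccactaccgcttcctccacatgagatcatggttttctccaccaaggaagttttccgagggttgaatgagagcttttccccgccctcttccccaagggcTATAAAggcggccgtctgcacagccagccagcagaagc
Tnfrsf1b, chr4:145246862-145247060, minus strand: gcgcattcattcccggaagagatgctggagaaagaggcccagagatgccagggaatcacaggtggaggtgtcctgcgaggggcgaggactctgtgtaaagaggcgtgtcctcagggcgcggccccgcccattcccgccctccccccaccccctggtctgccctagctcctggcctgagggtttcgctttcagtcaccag

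The κB-type motif was found 2 times each in the windows of *Nfkbia* and *Tnfaip3*. It was in 6.62% of the 27025 genes with a window, and in none of the windows of *Tnf*, *Tnfrsf1b*, *Tnfrsf1a*, *Tnfrsf12a* and *Birc3*. In *Nfkbia* the matches begin 178 and 29 bases before the start, and in *Tnfaip3* 24 and 12 bases before it. The *Tnfaip3* start used lies 247 bases inside the GENCODE M21 gene, and the window of a second RefSeq start further inside held neither motif. *Tnf* had a TATAAA 29 bases before its start, a motif held by 15.7% of the genes. *Nfkbia* and *Tnfaip3* each held a TATAAA outside the printed stretches. These matches describe letters in a window of 300 bases and are not measured binding.

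None of the 9 genes passed the test for KO against WT over all genes (edgeR quasi-likelihood with Benjamini-Hochberg adjustment, threshold 0.05), which called 0.0261% of the genes, all 5 of them higher in KO. At an unadjusted p under 0.05, 5 of the 9 were higher in KO and 0 lower, where 10.6% of all genes were higher. DESeq2 called 1 of them, *Tnfrsf1b*, against 5.32% of all genes called higher. The log2 fold change was positive for 8 of the 9, where 9004 of the 19188 genes tested were positive. Its median was 0.57 for the 9, against -0.03 over all genes tested. The KO and WT libraries did not overlap, with KO higher, for 2 of the 9, *Tnfrsf1b* and *Tnfaip3*, as for 8.17% of all genes. The library totals were 68151472 to 76926790 counts, and among the 9 genes only *Tnf* fell under 100 counts in a library.

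KO replicate 2 stood nearest to WT. It lay inside the WT range for 7 of the 9 genes and above every WT library for the other 2. KO replicates 1 and 3 each lay above every WT library for 7 of the 9. These positions were not counted over all genes, of which 26.5% had KO replicate 1 as the highest library. Without KO replicate 2 the test called 3, *Tnf*, *Tnfrsf1a* and *Tnfrsf1b*, against 4.55% of all genes called higher. Without KO replicate 1 the median log2 fold change of the 9 was 0.27, and without KO replicate 2 it was 0.81.

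**Figure D1:**
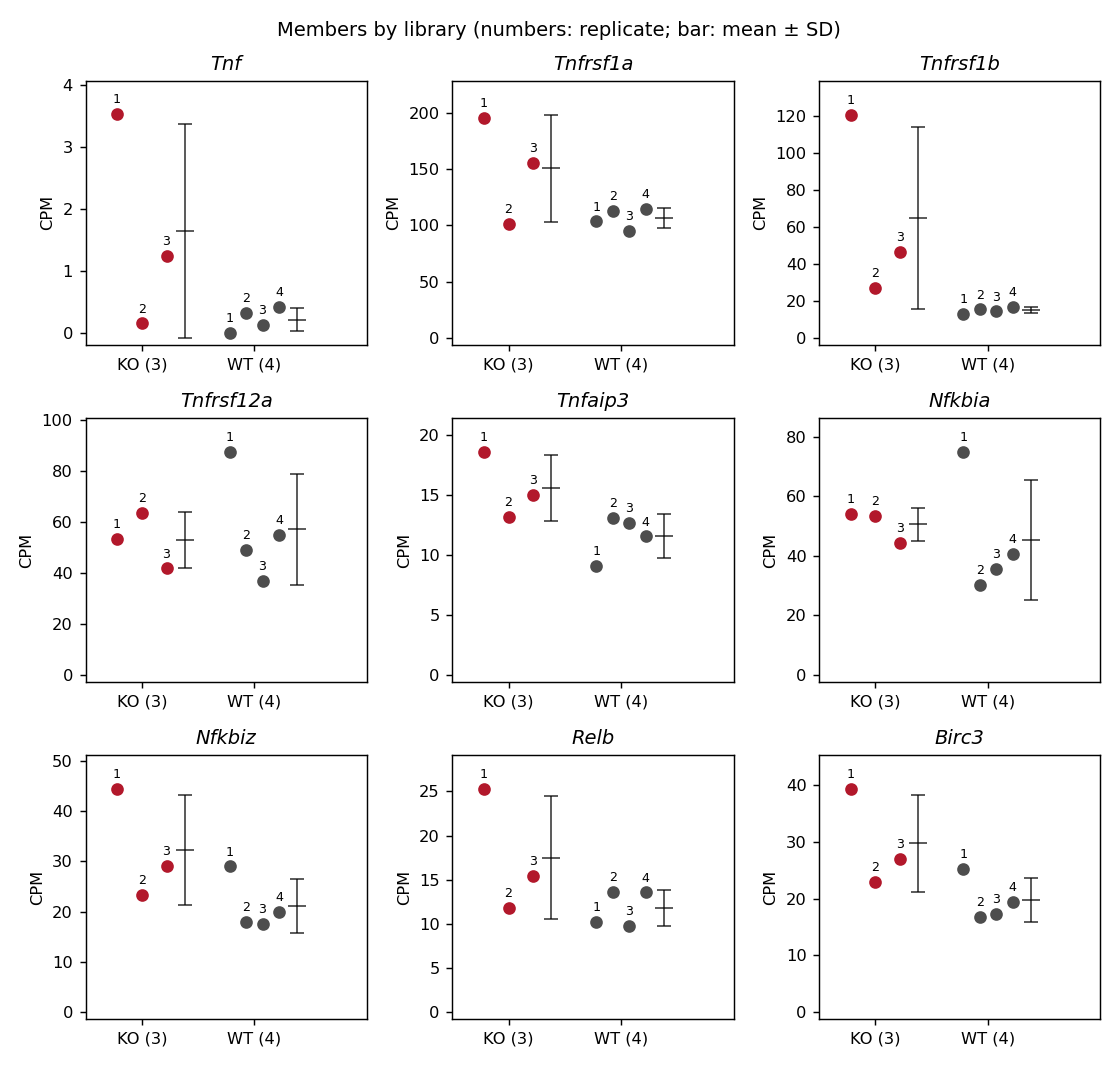
Level of each of the 9 genes in CPM (vertical axes reach down to 0) in the 3 KO and 4 WT libraries. Points are libraries with their replicate number and bars are mean ± SD; *Tnfrsf1b* and *Tnfaip3* are the genes whose groups do not overlap, and KO replicate 1 is the highest library in 7 of the 9 panels.

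The ligand was scarce in every library. *Tnf* (chromosome 17, 35199381 to 35202007, GRCm38) was at 3.54, 0.157 and 1.24 CPM in KO replicates 1, 2 and 3, against 0, 0.324, 0.129 and 0.421 CPM in WT replicates 1 to 4, CPM being counts scaled to a common library size. These values rest on 291, 11 and 96 deposited counts in KO and on 0, 23, 9 and 31 in WT, and the 0 of WT replicate 1 allows up to 3 counts, or 0.0470 CPM. KO replicates 1 and 3 were above all WT libraries and KO replicate 2 was among them, so the groups overlapped. KO averaged 1.65 ± 1.73 CPM (SD, n = 3) and WT averaged 0.218 ± 0.190 CPM (SD, n = 4), a log2 fold change of 2.89 with an SE of 1.02 (edgeR adjusted p = 0.202). Without KO replicate 1 it was 1.66.

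The receptors of the ligand differed from each other. *Tnfrsf1b* encodes TNFR2, the receptor enriched on leukocytes (chromosome 4, 145213463 to 145246870). It was at 120.6, 27.0 and 46.7 CPM in KO replicates 1, 2 and 3, against 13.2, 15.4, 14.4 and 16.9 CPM in WT replicates 1 to 4. All KO libraries were above all WT libraries, and the KO libraries were spread far more widely than the WT libraries. KO averaged 64.8 ± 49.3 CPM (SD, n = 3), against 15.0 ± 1.60 CPM for WT (SD, n = 4). The log2 fold change of 2.11 (SE 0.45) had an edgeR adjusted p of 0.139 and a DESeq2 adjusted p of 0.000398, and it was 1.29 without KO replicate 1.

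*Tnfrsf1a* encodes TNFR1, the broadly expressed receptor with a death domain (chromosome 6, 125349362 to 125362484). It was at 196, 101 and 156 CPM in KO, against 104, 113, 94.9 and 115 CPM in WT. KO replicates 1 and 3 were the highest libraries and KO replicate 2 was between WT libraries. The log2 fold change was 0.50 (SE 0.21, edgeR adjusted p = 0.259) and was 0.27 without KO replicate 1 and 0.78 without KO replicate 2. *Tnfrsf12a* encodes Fn14, the receptor of the TNF relative TWEAK (chromosome 17, 23675445 to 23677468). It was at 53.5, 63.7 and 41.9 CPM in KO, against 87.6, 49.2, 36.9 and 55.0 CPM in WT, and the groups overlapped throughout. KO minus WT was -0.11 on the log2 scale (SE 0.29; edgeR adjusted p = 0.871), and it was 0.20 without WT replicate 1 and 0.05 without KO replicate 3.

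The ratio of the receptors within a library, with no constant added, does not depend on the scaling between libraries. Per 100 CPM of *Tnfrsf1a* there were 61.5, 26.7 and 29.9 CPM of *Tnfrsf1b* in KO replicates 1, 2 and 3, against 12.7, 13.7, 15.1 and 14.8 CPM in WT replicates 1 to 4. Every KO library had the higher ratio, KO replicate 2 included. The mean log2 ratio, with 2 CPM added to each gene, was -1.41 ± 0.62 in KO and -2.68 ± 0.10 in WT (SD, n = 3 and 4). The difference of 1.27 had an exact permutation p of 0.0286 (2-sided, all 35 assignments of the group labels), the smallest that 7 libraries can give. Without the added 2 CPM the difference was 1.385, with the same permutation p. This ratio was chosen with the levels of both genes known, so the p is no independent support.

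The ratio and *Tnfrsf1b* itself ordered the KO libraries as the summed macrophage and neutrophil markers did, an order that 7 of the 9 genes shared. This order was not counted over all genes, of which 26.5% had KO replicate 1 as the highest library. The 12 macrophage markers (*Adgre1*, *Cd68*, *Csf1r* and others) summed to 4058, 708 and 1297 CPM in KO replicates 1, 2 and 3, against 319 to 552 CPM in WT. All 12 had every KO library above every WT library, as had 8.17% of all genes. DESeq2 called 12, against 5.32% of all genes called higher, edgeR called 0, and no macrophage marker was at 0 in a library. The 8 neutrophil markers summed to 328, 10.7 and 56.8 CPM in KO replicates 1, 2 and 3, against 3.11 to 12.0 CPM in WT. *Retnlg*, *Ly6g*, *Mpo* and *Camp* among them were at 0 in some libraries. Of the 7 neutrophil markers tested, 5 had a positive and 2 a negative log2 fold change, and 2 had every KO library above every WT library. DESeq2 called 5 of them and edgeR 0. In KO and in WT the 8 T cell markers summed to 15.7 to 46.4 CPM and 12.6 to 135 CPM, and the 5 B cell markers to 4.01 to 12.3 CPM and 2.62 to 6.60 CPM. The part of these cells in the receptor levels was not tested. In RNA of whole tissue, more cells of a type and more RNA per cell cannot be told apart.

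**Figure D2:**
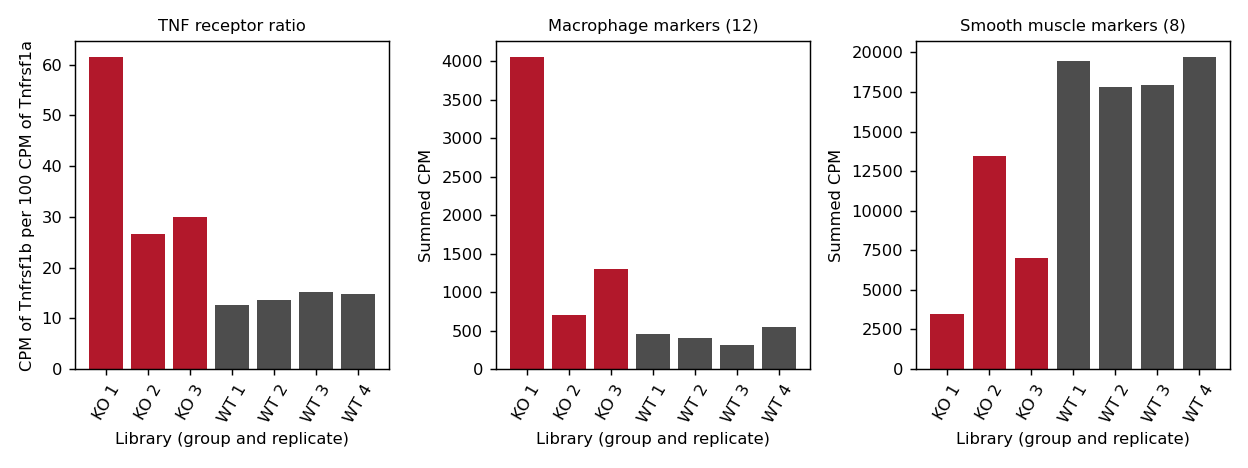
Left, CPM of *Tnfrsf1b* per 100 CPM of *Tnfrsf1a* in each library; middle and right, summed CPM of 12 macrophage and 8 smooth muscle markers (bars are single libraries, KO in red, WT in grey). The receptor ratio and the macrophage sum are highest in KO replicate 1, and the smooth muscle sum is lowest there.

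Smooth muscle, the main cell of the aortic wall, was counted in all libraries. Its 8 markers (*Acta2*, *Myh11* and others) summed to 3447, 13451 and 7022 CPM in KO replicates 1, 2 and 3, against 17782 to 19708 CPM in WT. All 8 had a negative log2 fold change (median -1.015), where 10184 of the 19188 genes tested were negative. For 6 of them every KO library was below every WT library, where 1643 of all genes tested were. DESeq2 called 4 lower, where it called 586 of all genes lower, and edgeR called 0. Endothelial markers summed to 868, 1519 and 1487 CPM in KO replicates 1, 2 and 3, against 1453 to 1590 CPM in WT. In KO and in WT the fibroblast markers summed to 7274 to 11508 CPM and 5199 to 9406 CPM. The adipocyte markers summed to 1922 to 5189 CPM in KO and 2372 to 4596 CPM in WT. Heart muscle markers summed to 728, 956 and 33.4 CPM in KO replicates 1, 2 and 3, against 87.0 to 152 CPM in WT, so that KO libraries lay on both sides of WT, and the 4 skeletal muscle markers summed to 19.5 to 141 CPM in KO and 4.50 to 8.36 CPM in WT. Mitochondrially encoded genes took 5.95%, 11.8% and 13.7% of the counts in KO replicates 1, 2 and 3, against 9.99% to 15.3% in WT. KO replicate 1 was thus the lowest library in this measure. *Mmp19* itself was at 25.5, 12.0 and 15.9 CPM in KO, against 24.8, 24.8, 20.7 and 34.7 CPM in WT (edgeR adjusted p = 0.342), so that its level does not separate the labels, and *Tmem198b* overlaps it on the other strand.

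The A20 gene, *Tnfaip3*, whose product removes activating ubiquitin chains from the TNF receptor complex (chromosome 10, 19000910 to 19015657), separated the groups by a narrow margin. It was at 18.6, 13.2 and 15.0 CPM in KO, against 9.07, 13.1, 12.7 and 11.6 CPM in WT. The lowest KO library and the highest WT library nearly touched, at 13.22 and 13.11 CPM. KO averaged 15.6 ± 2.76 CPM (SD, n = 3), against 11.6 ± 1.82 CPM for WT (SD, n = 4). KO exceeded WT by 0.43 on the log2 scale (SE 0.19; edgeR adjusted p = 0.28, DESeq2 adjusted p = 0.203), and by 0.27 without KO replicate 1.

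*Nfkbia* encodes IκBα, which holds NF-κB in the cytoplasm (chromosome 12, 55489410 to 55492647). It was at 54.0, 53.5 and 44.2 CPM in KO, against 75.0, 30.3, 35.6 and 40.6 CPM in WT. WT replicate 1 was the highest of the 7 libraries, and the other WT libraries were below all KO libraries. The log2 fold change was 0.16 (SE 0.30, edgeR adjusted p = 0.81) over all libraries and 0.54 without WT replicate 1 (edgeR adjusted p = 0.282). It was 0.04 without WT replicate 2 and 0.06 without WT replicate 3. The genes for A20 and IκBα, whose promoters both hold κB-type motifs above, thus had WT replicate 1 at opposite ends of the WT range.

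*Nfkbiz* encodes IκBζ, a nuclear IκB protein that helps NF-κB switch on late genes such as *Il6* (chromosome 16, 55811375 to 55838899). It was at 44.4, 23.3 and 29.1 CPM in KO, against 29.0, 18.0, 17.5 and 19.9 CPM in WT. *Birc3* encodes cIAP2, a ubiquitin ligase of the TNF receptor complex that limits cell death (chromosome 9, 7848699 to 7873186). It was at 39.4, 23.0 and 27.0 CPM in KO, against 25.3, 16.8, 17.3 and 19.5 CPM in WT. Both genes ordered the 7 libraries alike at the top, with KO replicate 1, KO replicate 3, WT replicate 1 and KO replicate 2 in this order, so that WT replicate 1 alone among the WT libraries lay among the KO libraries. Their log2 fold changes were 0.62 (SE 0.26, edgeR adjusted p = 0.27) and 0.60 (SE 0.22, edgeR adjusted p = 0.221). Without KO replicate 1 they were 0.31 and 0.34, and without WT replicate 1 they were 0.84 and 0.77 (edgeR adjusted p = 0.282 for both).

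*Relb* encodes the NF-κB subunit of the noncanonical pathway (chromosome 7, 19606217 to 19629438). It was at 25.3, 11.8 and 15.4 CPM in KO, against 10.2, 13.6, 9.78 and 13.6 CPM in WT. KO replicate 2 lay between the WT libraries, and KO replicates 1 and 3 above them. The log2 fold change was 0.57 (SE 0.28, edgeR adjusted p = 0.321), and 0.20 without KO replicate 1.

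Across the 9 genes, the libraries followed a few patterns. KO replicate 1 was the highest library for 7 of the 9 genes, as it was for 26.5% of all genes tested. For the same 7 the KO libraries ran from replicate 1 through 3 to 2, an order not counted over all genes. The 2 exceptions were *Tnfrsf12a* and *Nfkbia*, which were highest in WT replicate 1. WT replicate 1 was the highest WT library for 4 of the 9 genes (*Tnfrsf12a*, *Nfkbia*, *Nfkbiz* and *Birc3*), against 27.2% of all genes, and the lowest for *Tnf*, *Tnfrsf1b* and *Tnfaip3*. Relative to the mean of the other WT libraries, WT replicate 1 had 2.11 times as much *Nfkbia*, 1.87 times as much *Tnfrsf12a*, 1.57 times as much *Nfkbiz* and 1.41 times as much *Birc3*. The 9 immediate early genes (*Fos*, *Egr1*, *Dusp1* and others), which respond rapidly to many stimuli, summed to 483, 457 and 612 CPM in KO replicates 1, 2 and 3, against 1046, 320, 982 and 975 CPM in WT replicates 1 to 4. WT replicate 1 was the highest in them by a small margin and WT replicate 2 the lowest, and their part in the levels of the 9 genes was not tested.

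**Figure D3:**
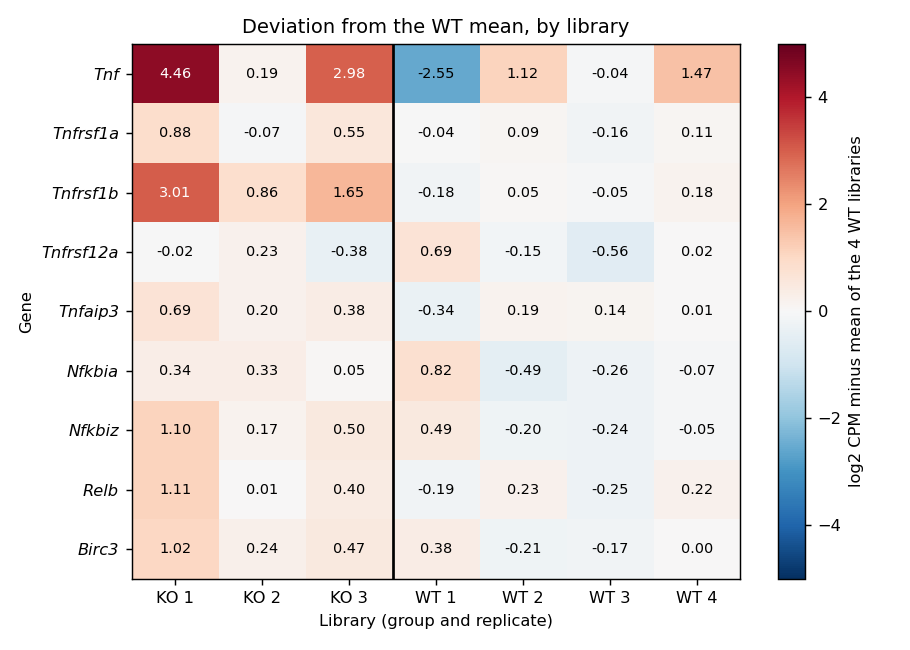
Log2 CPM (prior count 2) of each gene in each library minus the mean of the 4 WT libraries, with red above and blue below that mean and the value written in each cell. The KO replicate 1 column is red for 8 of the 9 genes, and the WT replicate 1 column is red for *Tnfrsf12a*, *Nfkbia*, *Nfkbiz* and *Birc3*.

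The genes whose log2 CPM over the 7 libraries was most like that of a member differed between members. Among 11705 named genes with a mean of 5 CPM or more, *Irf8* and *Cybb* were most like *Tnfrsf1b* (Pearson r = 0.999 for both), and *Ripk3* and *Gm12435* most like *Relb* (r = 0.998 and 0.996). *Atad2b* and *Pappa* were most like *Birc3* (r = 0.994 and 0.992), *Arfgef1* and *Zfp469* most like *Nfkbiz* (0.993 and 0.990), and *Snhg1* and *Tshr* most like *Tnf* (0.994 and 0.985). *Klf6* and *Pcgf3* were most like *Nfkbia* (0.991 and 0.988), *Wdr75* and *Pisd* most like *Tnfrsf1a* (0.990 and 0.989), *Traf1* and *Sox4* most like *Tnfaip3* (0.987 and 0.986), and *Atf7* and *Bdnf* most like *Tnfrsf12a* (0.978 and 0.974). These are the best of many genes over 7 libraries that share a design and, in KO, a library that stands apart, so they are given as a description with no p.

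Levels of different genes were compared per length, as CPM per kilobase of the union of GENCODE M21 exons. In KO the order ran from *Tnfrsf1a* (58.3 ± 18.4 CPM per kilobase) through *Nfkbia* (31.4 ± 3.43), *Tnfrsf12a* (27.4 ± 5.66), *Tnfrsf1b* (17.0 ± 12.9), *Nfkbiz* (6.43 ± 2.17), *Birc3* (5.94 ± 1.70), *Relb* (4.50 ± 1.80) and *Tnfaip3* (2.16 ± 0.38) to *Tnf* (1.00 ± 1.05; SD, n = 3). In WT it ran from *Tnfrsf1a* (41.1 ± 3.52 CPM per kilobase) through *Tnfrsf12a* (29.6 ± 11.2), *Nfkbia* (28.2 ± 12.5), *Nfkbiz* (4.20 ± 1.07), *Birc3* (3.94 ± 0.77), *Tnfrsf1b* (3.92 ± 0.42), *Relb* (3.04 ± 0.54) and *Tnfaip3* (1.61 ± 0.25) to *Tnf* (0.133 ± 0.116; SD, n = 4). By these means *Tnfrsf1b* stood at rank 4 in KO and rank 6 in WT. Its WT rank rested on WT replicate 1, at 3.45 CPM per kilobase, against 5.77 for *Nfkbiz* and 5.04 for *Birc3*. In WT replicates 2, 3 and 4 *Tnfrsf1b* was above both, at 4.03, 3.76 and 4.43. *Nfkbiz* was there at 3.58, 3.49 and 3.96, and *Birc3* at 3.35, 3.46 and 3.89. Neighbours without overlap between their libraries were *Tnfrsf1a* and *Nfkbia*, and *Relb* and *Tnfaip3*, in KO. In WT they were *Nfkbia* and *Nfkbiz*, *Relb* and *Tnfaip3*, and *Tnfaip3* and *Tnf*. All other neighbours overlapped in range. Within each KO library, all these overlapping neighbours kept the order given except *Tnfrsf12a* and *Tnfrsf1b*. Within each WT library, *Nfkbiz* and *Birc3*, and *Tnfrsf1b* and *Relb*, kept the order given, and the other overlapping neighbours did not.

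Of the other ligands of the TNF family, 12 of 16 passed the filter and 0 were called by edgeR, with 5 at an unadjusted p under 0.05, all higher in KO, and 3 called higher by DESeq2. Their log2 fold changes had a median of 1.06 (0.64 without KO replicate 1), and for 5 of the 12 the groups did not overlap, with KO higher. Over all genes 8.17% did not overlap in this direction, 10.6% were higher at that unadjusted p and DESeq2 called 5.32% higher. *Tnfsf14*, the ligand LIGHT of the lymphotoxin β receptor, was at 8.88, 0.371 and 2.95 CPM in KO, against 0.125, 0.296, 0.172 and 0.217 CPM in WT (log2 fold change 4.32, SE 1.02, edgeR adjusted p = 0.144). *Tnfsf11*, the osteoclast factor RANKL, was at 2.26, 0.214 and 0.583 CPM in KO and was counted in 1 of the 4 WT libraries, at 0.0563 CPM. *Fasl*, the death ligand of cytotoxic lymphocytes, was at 0.328, 0.271 and 0.155 CPM in KO and likewise in 1 WT library, at 0.0704 CPM. *Tnfsf8*, the ligand of CD30, was at 5.51, 0.386 and 4.43 CPM in KO, against 0, 0, 0.0574 and 0.516 CPM in WT. All 4 were low, and KO replicate 2 held less of *Tnfsf14*, *Tnfsf11* and *Tnfsf8* than the other KO libraries.

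Of the other receptors of the family, 19 of 20 passed the filter and 1 was called, where 0.0261% of all genes were called. The called gene was *Tnfrsf11b*, the soluble decoy receptor osteoprotegerin. It rose to 74.1, 53.7 and 45.7 CPM in KO, against 9.53, 9.69, 7.83 and 13.0 CPM in WT (log2 fold change 2.53, SE 0.22, edgeR adjusted p = 0.0229). This gene had been seen in earlier results of these data, and its call was lost without any 1 of the 4 WT libraries, the adjusted p then reaching up to 0.183. The median of the receptors was 0.21 on the log2 scale, 0.11 without KO replicate 1 and 0.48 without KO replicate 2. DESeq2 called 3 of the 19 higher, against 5.32% of all genes. *Tnfrsf13b*, the B cell receptor TACI, was at 15.0, 2.23 and 4.21 CPM in KO, against 0.486, 2.34, 0.990 and 1.32 CPM in WT. *Eda2r*, an ectodysplasin receptor, was at 12.1, 10.2 and 9.78 CPM in KO, against 8.05, 3.25, 4.89 and 5.58 CPM in WT, and *Cd40*, a costimulatory receptor of antigen-presenting cells, at 6.28, 3.18 and 4.48 CPM, against 3.02, 3.00, 2.51 and 2.85 CPM. Their edgeR adjusted p-values were 0.163, 0.167 and 0.228.

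The 9 remaining NF-κB subunits and IκB proteins had a median log2 fold change of 0.67 (0.19 without KO replicate 1), and edgeR called 0 of them. At an unadjusted p under 0.05, 4 were higher, against 10.6% of all genes. DESeq2 called 2 higher, *Bcl3* and *Rel*, against 5.32% of all genes. *Bcl3*, an IκB protein that acts as a coactivator, was at 45.8, 9.87 and 36.0 CPM in KO, against 3.73, 12.5, 7.57 and 8.73 CPM in WT (edgeR adjusted p = 0.16). *Rel*, the c-Rel subunit of lymphoid and myeloid cells, was at 34.2, 11.6 and 15.6 CPM in KO, against 8.85, 10.9, 8.81 and 8.34 CPM in WT (edgeR adjusted p = 0.172), with a log2 fold change that came to 0.55 once KO replicate 1 was left out. *Nfkb2*, the precursor of the RelB partner p52, was at 60.4, 28.4 and 31.4 CPM in KO, against 26.2, 25.1, 23.5 and 26.0 CPM in WT, and *Nfkbid*, a nuclear IκB protein, at 6.70, 0.685 and 2.78 CPM, against 0.987, 0.873, 0.803 and 1.41 CPM. The broadly expressed subunits, named here after their values had been seen, differed less. *Rela* was at 67.2 ± 10.5 CPM in the KO libraries, against 73.9 ± 6.04 CPM in the WT libraries (mean ± SD, n = 3 and 4). *Nfkb1* was at 88.7 ± 17.6 CPM in the KO libraries, against 70.9 ± 6.48 CPM in the WT libraries, with edgeR adjusted p-values of 0.617 and 0.304.

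Among 25 genes of TNF receptor signalling the log2 fold changes had a median of 0.16 (0.07 without KO replicate 1), and 0 were called by edgeR and 1 by DESeq2, *Mlkl*. At an unadjusted p under 0.05, 7 were higher and 1 lower, where 10.6% of all genes were higher. The 1 DESeq2 call among 25 stands against 5.32% of all genes called higher. *Mlkl*, the pore-forming effector of necroptosis, was at 17.8, 8.77 and 13.4 CPM in KO, against 5.50, 5.80, 5.18 and 6.49 CPM in WT (log2 fold change 1.21, SE 0.25, edgeR adjusted p = 0.138). *Adam17*, the protease that releases TNF and sheds its receptors from the cell surface, was at 117, 81.4 and 82.6 CPM in KO, against 67.1, 61.9, 62.1 and 71.5 CPM in WT (log2 fold change 0.51, SE 0.15, edgeR adjusted p = 0.165, and 0.32 without KO replicate 1). Both genes had all KO libraries above all WT libraries. *Map3k14*, the kinase NIK that starts the noncanonical pathway, was at 22.5, 7.61 and 11.8 CPM in KO, against 5.01, 8.05, 5.95 and 7.40 CPM in WT. *Traf1*, an adaptor induced by NF-κB, was at 13.3, 4.28 and 6.16 CPM in KO, against 1.90, 4.41, 3.70 and 3.26 CPM in WT, and KO replicate 2 overlapped WT in both.

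The 13 further inhibitors of the pathway had a median log2 fold change of 0.12 (0.05 without KO replicate 1 and 0.24 without KO replicate 2), with 0 called by edgeR. At an unadjusted p under 0.05, 3 were higher, against 10.6% of all genes. DESeq2 called 2 higher, *Tnfaip8l2* and *Tnip3*, against 5.32% of all genes. *Tnfaip8l2*, the immune inhibitor TIPE2 of leukocytes, was at 20.7, 3.90 and 5.57 CPM in KO, against 1.66, 2.38, 1.95 and 2.36 CPM in WT (edgeR adjusted p = 0.145). *Tnip3*, an A20-binding protein, was at 2.75, 0.528 and 0.919 CPM in KO, against 0.125, 0.296, 0.215 and 0.570 CPM in WT. *Zc3h12a*, the RNase Regnase-1 that degrades cytokine transcripts, was at 16.1, 8.54 and 16.6 CPM in KO, against 5.34, 6.52, 8.38 and 9.30 CPM in WT. *Itch*, a ubiquitin ligase that works with A20, was at 105, 96.7 and 85.6 CPM in KO, against 96.3, 76.5, 78.7 and 83.1 CPM in WT. Without KO replicate 1 the log2 fold change of *Tnfaip8l2* was 1.17, against 2.27 with it. The edgeR adjusted p-values of *Tnip3*, *Zc3h12a* and *Itch* were 0.18, 0.183 and 0.435.

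The NF-κB target genes outside the feedback loop had the highest median of the 6 pathway lists. Higher medians were those of the macrophage (2.28), neutrophil (3.32), heart muscle (3.11) and skeletal muscle (3.41) marker lists. The part of these cells in the target genes was not tested. Of 30 genes 28 passed the filter, all 28 had a positive log2 fold change, and the median was 1.92 (1.24 without KO replicate 1). EdgeR called 0 of them, with 21 at an unadjusted p under 0.05, while DESeq2 called 18, all higher. Over all genes 10.6% were higher at that unadjusted p, and DESeq2 called 5.32% higher. Groups did not overlap for 12 of the 28, with KO higher, against 8.17% of all genes. The list was chosen with earlier results of these data known. *Il6*, the cytokine interleukin 6, was at 6.37, 0.214 and 18.2 CPM in KO and was counted in 1 of the 4 WT libraries, at 0.0679 CPM. *Il1b*, interleukin 1β, was at 17.1, 1.21 and 28.2 CPM in KO, against 0.125, 0.282, 0.186 and 0.434 CPM in WT (log2 fold change 5.88, SE 1.05, edgeR adjusted p = 0.135). *Vcam1*, the leukocyte adhesion molecule, was at 138, 103 and 150 CPM in KO, against 59.8, 42.9, 55.9 and 66.9 CPM in WT (log2 fold change 1.21, SE 0.18, edgeR adjusted p = 0.128). *Bcl2a1b*, a survival gene with near-identical copies between which reads may be split, was at 19.1, 2.03 and 9.24 CPM in KO, against 0.110, 0.450, 0.359 and 0.489 CPM in WT. Of the 28 genes, 14 were highest in KO replicate 1, *Bcl2a1b* among them, while *Il6*, *Il1b* and *Vcam1* were highest in KO replicate 3.

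**Figure D4:**
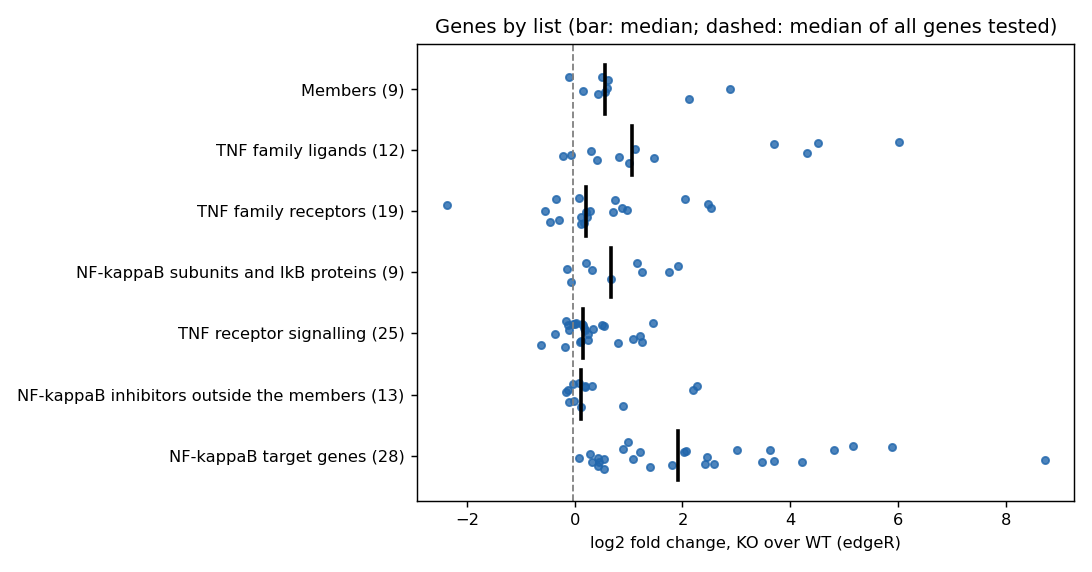
Log2 fold change of KO over WT for each tested gene (points) of the 9 members and 6 lists of pathway genes, with black bars at the list medians and a dashed line at the median of all genes tested (-0.03). The target genes have the highest median, 1.92, and the members 0.57.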

How the data were processed

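The 7 libraries came from Trizol-extracted aorta RNA and, per the labels, the SMARTER mRNA-Seq kit. The authors deposited estimated counts per Ensembl gene, whole numbers in which multiples of 4 are 1.09 to 1.41 times as frequent as their neighbours. The genome was GRCm38 (mm10) per the submitters' processing notes; which aligner or counter was used, and whether with strand, is not given in the sources used here. Genes were filtered by filterByExpr, scaled by TMM and tested with edgeR 4.0.16 (glmQLFit with legacy set to FALSE, Benjamini-Hochberg threshold 0.05) in R 4.3.3. CPM used TMM library sizes. DESeq2 1.42.0, limma-voom (limma 3.58.1), edgeR's older dispersion setting, other filters and scalings, counts divided by 4, a replicate block and leaving out each library were alternatives. The code was tested on simulated data. Members and lists were chosen with earlier results of these data known. Within a pathway list, the named genes were any called over all genes and the 4 with the smallest p, and the genes named for likeness were the 2 of highest r per member. The replicate numbers were not treated as pairs, since no label says that same-numbered libraries share a litter, day or batch. The deviations of same-numbered libraries correlated at 0.0545, 0.0691 and 0.340.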

Additional observations from a re-analysis of the deposited data

Results flagged for a closer look

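Among 46 sets of 4 WT values examined for 1 library far from the rest, 6 stood out. Chance marks about 1 in 20 such sets of continuous values, a share that cannot be applied to *Tnfsf11*, *Fasl* and *Il6*, where the other WT libraries were all at 0 and the library named held 4 or 5 counts. A 0 allows up to 3 counts, so these values show little beyond the detection limit. *Tnfsf11* was at 0.0563 CPM in WT replicate 2 and at 0 in the other WT libraries. *Fasl* was at 0.0704 CPM in WT replicate 2 and at 0 in the others. *Tnfsf8* was at 0.516 CPM in WT replicate 4 and at 0 to 0.0574 CPM in the others. *Il6* was at 0.0679 CPM in WT replicate 4 and at 0 in the others. The T cell markers summed to 134.6 CPM in WT replicate 2 and to 12.6 to 17.7 CPM in the others. The immediate early genes summed to 320.5 CPM in WT replicate 2 and to 975 to 1046 CPM in the others.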

How the results depend on the processing

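Over all genes edgeR called 5, against 1606 by DESeq2, 0 by limma-voom, 3 with the older dispersion setting and 10 with counts divided by 4. Leaving out 1 library gave 0 to 1364 calls, the most without KO replicate 2 (909 higher, 455 lower) and 0 without any 1 WT library. Calls among the 9 genes were 0, with DESeq2 1 and with 1 library left out 0 to 3. By list the calls of edgeR, DESeq2 and edgeR with 1 library left out were 0, 3 and 0 to 3 for ligands, 1, 3 and 0 to 2 for receptors, 0, 2 and 0 to 3 for subunits, 0, 1 and 0 to 3 for signalling, 0, 2 and 0 to 2 for inhibitors, and 0, 18 and 0 to 19 for targets. Limma-voom called 0 receptors. The log2 receptor ratio differed by 0.914 to 1.48 with 1 library left out (exact permutation p of 0.0667 or 0.1, the smallest those designs allow). The log2 fold change of *Tnfrsf12a* ran from -0.27 to 0.20 with 1 library left out, positive without KO replicate 3 (0.05) or WT replicate 1 (0.20). The other 8 genes kept their sign in every alternative that gave a value. *Tnf* had no value with counts divided by 4, where it missed the filter. The cause of these differences was not tested.

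With the replicate number as a block, edgeR called 0 genes and 0 receptors. Over the 3 same-numbered pairs, which leave out WT replicate 4, the log2 receptor ratio differed by 1.29. The p of 0.25 came from exact sign flips of these 3 differences and is the smallest they can give, so it cannot decide whether a difference remains. Same-numbered libraries correlated at 0.0545, 0.0691 and 0.340 for replicates 1, 2 and 3, and 0.340 was the highest of all KO and WT pairs. KO replicate 1 correlated best with WT replicate 4 (0.0892) and KO replicate 2 with WT replicate 1 (0.147). Whether same-numbered libraries share a litter, day or batch is not in the labels and was not tested.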
